A study of Saccharomyces cerevisiae with 60 samples.

Results

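Proteasome subunits and their activator Rpn4 are encoded here by 33 genes, RPN4 and 32 subunit genes. The subunit genes were picked by their standard names, with earlier results of these data known, and comprise 7 genes of the alpha ring and 7 of the beta ring of the core particle, 10 of the base and 8 of the lid of the regulatory particle. They are 33 of 7126 counted features and of 6070 genes that passed a filter on low counts. All 33 passed, and the lowest count of any of them in any library was 23. They lie on 13 chromosomes, all but PRE3 have a single exon, and RPT1 alone overlaps another counted feature (93 bp on the same strand).

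The proteasome degrades proteins tagged with ubiquitin. Its core particle is a barrel of stacked alpha and beta rings, in which the beta subunits encoded by PRE3, PUP1 and PRE2 carry the cutting sites. The base is a ring of ATPases (RPT genes) that unfolds substrates, with scaffolds and ubiquitin receptors beside it, and the lid removes ubiquitin through Rpn11. In budding yeast, Rpn4 is a short-lived transcription factor that binds a promoter element called PACE upstream of most proteasome genes, and it is itself degraded by the proteasome. RPN4 transcription is in turn known to respond to the heat shock factor Hsf1, to Pdr1 and Pdr3 of drug resistance, and to Yap1 of oxidative stress.

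Poly(A) RNA of budding yeast was measured in 60 libraries. They form 20 groups of 3, since 4 strain states were each taken at 25 °C and after 10 or 30 min at 37 or 42 °C. All cells were W303 in rich glucose medium with adenine (YPD-A), grown at 25 °C, and carried an anchor-away tag on Hsf1, by which rapamycin pulls a tagged nuclear protein out of the nucleus. Every culture spent 45 min at 25 °C with the solvent DMSO, alone or with rapamycin, before heat. Tagged cells with DMSO are labelled wildtype and are called wild type here, and tagged cells with rapamycin are labelled -hsf1 and are called Hsf1-depleted. Cells with msn2Δ/msn4Δ, which lack the related general stress activators Msn2 and Msn4, had DMSO (MSN-deleted) or rapamycin (double loss). Rapamycin and the loss of nuclear Hsf1 therefore cannot be told apart, and each background is a single strain in the labels. The comparisons ask how heat changed each gene within a state, and whether that response differed between states with and without Hsf1 or Msn2 and Msn4.

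Library totals ran from 3848210 to 10142858 counts (median 5938357). MSN2 was at 99.8 CPM (counts scaled to library size) or more in the 30 libraries with an intact gene and at 0.381 CPM or less in the 30 deleted ones, and MSN4 at 64.5 or more and 1.72 or less. HSF1 mRNA does not measure where the protein is, so depletion was not checked. The labels do not say that the 3 libraries of a group come from different cultures. All p-values therefore rest on library-to-library spread, which may be technical. The deposited tables fall into 6 sets of 10 libraries, 3 sets per MSN background, so a set and the MSN background cannot be told apart in levels at any temperature. Differences of responses across MSN backgrounds leave out an effect of the set only if it is the same with and without heat, which was not tested. Each group has 1 library in each of its 3 sets, so heated and control libraries of a state share sets. The main fit has no term for the set. Its p-values, the fits without single libraries and the overlaps of libraries given below therefore leave this pairing out. With the set as a term, no RPN4 call changed in 48 comparisons. Subunit counts moved by over 1.5 times in 20 comparisons and did not in 28. Scaling by library totals alone, in place of edgeR's TMM factors, moved the median change of all genes with heat to between -0.59 and 0.45 on the log2 scale, so subunit counts are given on that scale too where they moved by over 1.5 times or changed direction. Another reference library for the TMM factors moved that median by up to 0.15 in any comparison. Shares of all genes called are given for the main fit only. Subunit counts with library totals alone or under another alternative therefore have no background beside them, and all genes may have shifted with them. The 5 libraries farthest from the others of their groups, called outlying here, were MSN-deleted 42 °C 10 min library 1, double-loss 25 °C library 2, Hsf1-depleted 25 °C library 1, double-loss 37 °C 30 min library 2 and wild-type 37 °C 10 min library 3, and some results are also given without them, a choice made after the data had been seen.

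The DNA before the genes carries the elements named above. In the 500 bases before the start codon, read from R64, the PACE letters GGTGGCAAA (either strand) stood before 27 of 32 subunit genes (84.4%), against 1.65% of 6000 such windows of the genome. The sites began 84 to 183 bases before the start codon, with a median of 120. No such letters lay before PRE5, PUP1, RPN8, RPN10, RPN13 or RPN4. The following sites, with PACE or its reverse complement in capitals and written along the coding strand, belong to subunit genes named again among the results, and show that the element runs in both directions.
PRE3 chrX:435035-435063, plus strand: aacggaatccGGTGGCAAAaaagggaaaa
PRE1 chrV:177683-177711, plus strand: aaatctttacGGTGGCAAAaaataaagaa
SCL1 chrVII:475337-475365, minus strand: cacacaccaaTTTGCCACCgtaaggatag
RPT6 chrVII:411352-411380, minus strand: atgcgagcgaGGTGGCAAAagttgtaata
RPT4 chrXV:813802-813830, minus strand: aatagtggaaTTTGCCACCgaagggaaag
RPN11 chrVI:153259-153287, plus strand: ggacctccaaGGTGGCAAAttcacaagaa
RPN12 chrVI:252398-252426, plus strand: ctacacattaTTTGCCACCcattgaaatt

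RPN4 (YDL020C, R64 chrIV:415113-416708, minus strand) held a different set. A heat shock element of 3 units (GAANNTTC followed by NNGAA, or TTCNNGAA followed by NNTTC), the kind of site that Hsf1 binds, occurred 2 times in its window, beginning 348 and 21 bases before the start codon. Such an element lay in 1.48% of all windows and before 0 of the 32 subunit genes. A Yap1 response element (TTACTAA) lay once before RPN4, in 11.8% of all windows and before 5 subunit genes. The pleiotropic drug response element, with any base at N (TCCGNGGA), occurred 2 times before RPN4, in 2.92% of windows and before no subunit gene. Its form with C at that place (TCCGCGGA) was not in the RPN4 window or before any subunit gene. The stress response element of Msn2 and Msn4 (AGGGG) was not in the RPN4 window, and stood before 11 of 32 subunit genes (34.4%), near its share of all windows (34.1%). Capitals mark the element in the RPN4 sites below, the first pair being heat shock elements, then the Yap1 element and both drug response elements.
RPN4 chrIV:417036-417064, minus strand: agtgatggTTCTAGAAAGTTCcgtttcgg
RPN4 chrIV:416709-416737, minus strand: caaaagttTTCTAGAATTTTCaagcaatc
RPN4 chrIV:417066-417092, minus strand: gtgatcgctaTTACTAAtagccgttta
RPN4 chrIV:417133-417160, minus strand: aataacaagtTCCGTGGAactcaaagaa
RPN4 chrIV:417090-417117, minus strand: tacgaaccttTCCACGGAtaatcacgtg
A match shows letters in the reference sequence, not binding.

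RPN4 mRNA rose with heat in wild type at every temperature and time. Its level at 25 °C was 57.2, 49.6 and 80.9 CPM in the 3 libraries, a mean of 62.6 ± 16.3 (SD, n = 3). After 10 min at 37 °C it was 243, 199 and 340.3 CPM, and after 30 min 126, 153 and 151 CPM. Every heated library at 37 °C thus lay above every library at 25 °C, with the later time lower. At 42 °C the level was 722, 588 and 913 CPM after 10 min and 753, 671 and 572 CPM after 30 min, above all libraries at 37 °C. On the log2 scale the change from 25 °C, with its standard error, was 2.06 ± 0.27, adjusted p = 9.69e-09 and 1.19 ± 0.27, adjusted p = 0.000308 after 10 and 30 min at 37 °C. At 42 °C it was 3.56 ± 0.29, adjusted p = 1.18e-14 and 3.41 ± 0.29, adjusted p = 1.15e-14. The p-values are from edgeR's quasi-likelihood test with Benjamini-Hochberg adjustment over all 6070 genes, and a gene is called at an adjusted p under 0.05.

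Hsf1-depleted cells raised RPN4 in every heat condition, to lower levels than wild type at 42 °C. The libraries stood at 43.2, 42 and 48.1 CPM at 25 °C and at 49.8, 84.6 and 84.8 CPM after 10 min at 37 °C. They reached 168, 165 and 181 CPM after 30 min at 37 °C, 123, 134 and 100.4 CPM after 10 min at 42 °C and 143, 249 and 205 CPM after 30 min. All heated libraries lay above those at 25 °C, and those at 42 °C lay below every wild-type library at 42 °C. The log2 change was 0.72 ± 0.27, adjusted p = 0.025, then 1.95 ± 0.27, adjusted p = 2.65e-08, at 37 °C, and 1.42 ± 0.27, adjusted p = 1.73e-05, then 2.16 ± 0.27, adjusted p = 2.04e-09, at 42 °C. The call at 37 °C 10 min ended at 0.59 to 0.7 without Hsf1-depleted 25 °C library 1 or 2 or 37 °C 10 min library 2 or 3. The call was lost too with library totals alone (0.76).

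MSN-deleted cells also raised RPN4 in every heat condition. The libraries held 87.8, 81.7 and 79 CPM at 25 °C, 193, 181 and 302 CPM after 10 min at 37 °C and 194, 129 and 162 CPM after 30 min. At 42 °C they held 524, 1204 and 904 CPM after 10 min, the widest spread of any group, and 592, 672 and 782 CPM after 30 min. No heated library overlapped those at 25 °C. The log2 change was 1.44 ± 0.27, adjusted p = 2.04e-05 and 0.97 ± 0.26, adjusted p = 0.00459 at 37 °C for 10 and 30 min. At 42 °C it was 3.4 ± 0.29, adjusted p = 5.53e-14 and 3.04 ± 0.28, adjusted p = 3.48e-13.

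Double-loss cells showed no called RPN4 change in any heat condition. Their levels were 40.8, 60.1 and 39.7 CPM at 25 °C, 23.3, 39.2 and 40.5 CPM after 10 min at 37 °C and 39.3, 48.5 and 32.6 CPM after 30 min. At 42 °C they were 43.4, 49 and 67.1 CPM after 10 min and 58.9, 44.6 and 46.5 CPM after 30 min. All 4 heated groups overlapped the group at 25 °C. The log2 change was -0.45 ± 0.27, adjusted p = 0.259 and -0.22 ± 0.26, adjusted p = 0.498 at 37 °C. At 42 °C it was 0.18 ± 0.26, adjusted p = 0.613 and 0.09 ± 0.26, adjusted p = 0.784. These misses do not show equality, but each estimate lay within 2 standard errors of 0.

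**Figure D1:**
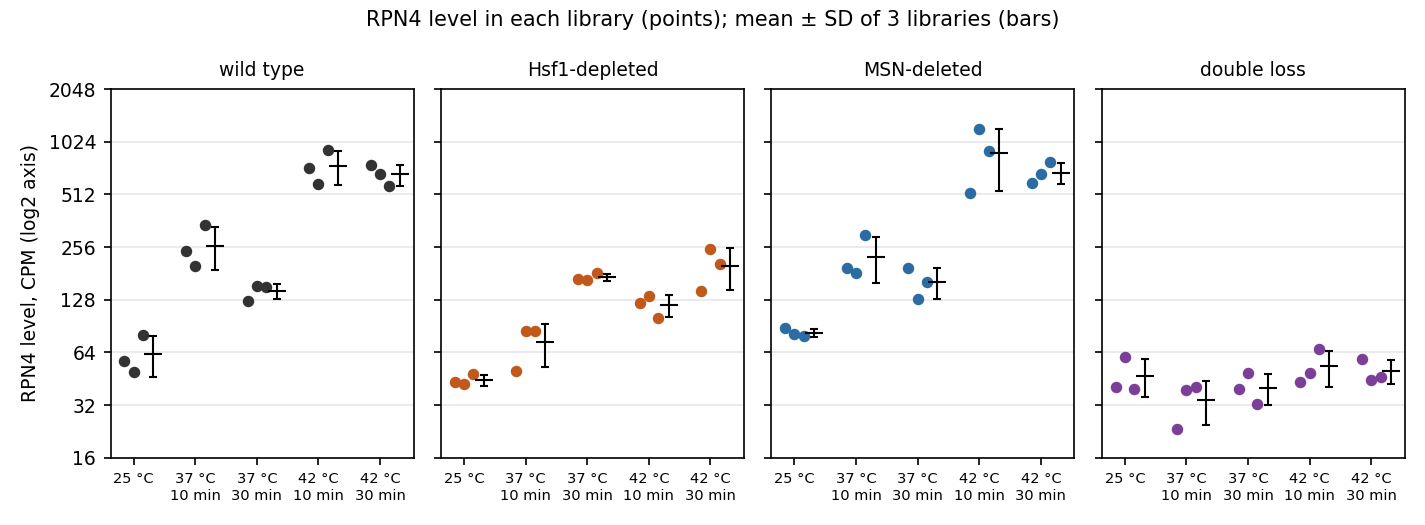
RPN4 level in CPM on a log2 axis, with one panel per state and one point per library, and the mean ± SD of 3 libraries as bars. Wild-type and MSN-deleted libraries climb to 524 CPM or more at 42 °C, Hsf1-depleted libraries stop at 249 CPM, and every double-loss library lies at or under 67.1 CPM.

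The difference of the RPN4 response from that of wild type was tested directly, as an interaction of state and heat. The Hsf1-depleted response was lower in 3 conditions, with a log2 difference (Hsf1-depleted minus wild type) of -2.14 ± 0.38, adjusted p = 0.000126 at 42 °C 10 min, -1.25 ± 0.37, adjusted p = 0.047 at 42 °C 30 min and -1.34 ± 0.37, adjusted p = 0.0315 at 37 °C 10 min. After 30 min at 37 °C the difference was 0.76 ± 0.37, adjusted p = 0.135, with the depleted response the higher of the pair but not called. At 42 °C 30 min the call ended at -1.27 to -1.06 without Hsf1-depleted 25 °C library 1 or 3 or 42 °C 30 min library 1 or 3 or wild-type 25 °C library 1 or 2 or 42 °C 30 min library 1 or 2. It was lost as well with library totals alone (-0.46) and with no filter on low counts (-1.25). At 37 °C 10 min it ended at -1.36 to -1.1 without Hsf1-depleted 25 °C library 1 or 3 or 37 °C 10 min library 1 or wild-type 25 °C library 1 or 2 or 37 °C 10 min library 3. This call was also lost with library totals alone (-0.72) and without the 5 outlying libraries (-1.12). At 42 °C 10 min it ended with library totals alone (-1.8).

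No MSN-deleted response of RPN4 differed from wild type by a called amount. The differences were -0.61 ± 0.37, adjusted p = 0.242 and -0.22 ± 0.37, adjusted p = 0.802 at 37 °C, and -0.16 ± 0.37, adjusted p = 0.826 and -0.37 ± 0.37, adjusted p = 0.475 at 42 °C. The double-loss response was lower than wild type in all 4 conditions. It differed by -2.51 ± 0.38, adjusted p = 1.53e-06 and -1.41 ± 0.37, adjusted p = 0.00299 at 37 °C, and by -3.38 ± 0.38, adjusted p = 2.25e-09 and -3.32 ± 0.38, adjusted p = 2.32e-09 at 42 °C. The call at 37 °C 30 min ended with library totals alone (-0.87).

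Setting double loss against each single loss was added after the data had been seen. Against the Hsf1-depleted response, the double-loss response of RPN4 was lower, by log2 differences of -1.17 ± 0.38, adjusted p = 0.0393 and -2.17 ± 0.38, adjusted p = 2.13e-05 at 37 °C. At 42 °C they were -1.24 ± 0.37, adjusted p = 0.0282 and -2.07 ± 0.38, adjusted p = 5.17e-05 (log2, double loss minus Hsf1-depleted). Both 30 min calls held in every fit that left out a library. The call at 37 °C 10 min ended at -1.15 to -0.95 without double-loss 25 °C library 2 or 37 °C 10 min library 1 or Hsf1-depleted 25 °C library 1 or 2 or 37 °C 10 min library 2 or 3. That call ended too with RLE scaling (-1.1), with library totals alone (-1.01) and without the 5 outlying libraries (-0.93). That at 42 °C 10 min ended at -1.2 to -1.02 without double-loss 25 °C library 2 or 42 °C 10 min library 1 or 2 or Hsf1-depleted 25 °C library 2 or 42 °C 10 min library 2. It ended likewise with library totals alone (-0.86). Against the MSN-deleted response the differences were -1.9 ± 0.38, adjusted p = 0.000363 and -1.19 ± 0.37, adjusted p = 0.0174 at 37 °C, and -3.23 ± 0.38, adjusted p = 1.33e-08 and -2.95 ± 0.38, adjusted p = 9.56e-08 at 42 °C. Here the call at 37 °C 30 min ended at -1.04 to -0.97 without double-loss 25 °C library 2 or MSN-deleted 37 °C 30 min library 1. It also ended with library totals alone (-1.02). All these comparisons share the double-loss libraries, and each pair shares its control.

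**Figure D2:**
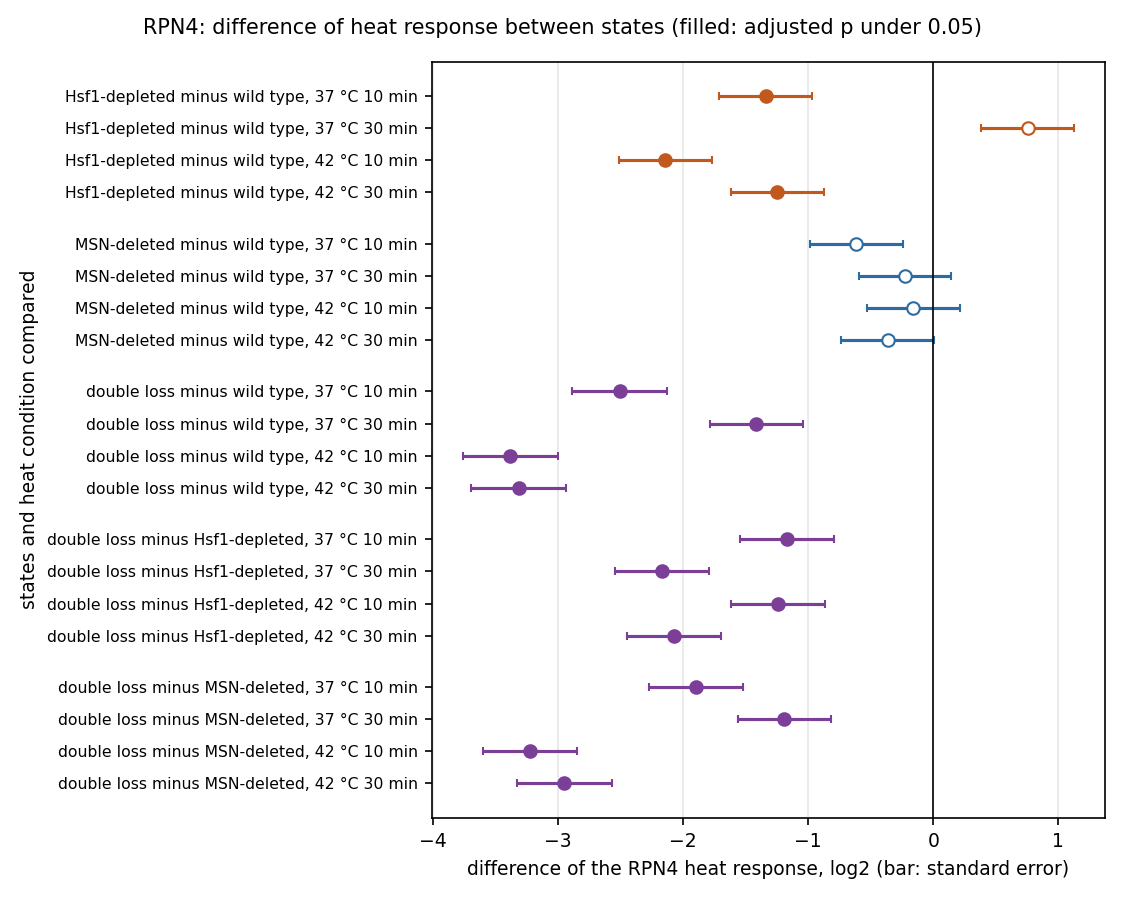
Difference of the RPN4 heat response between pairs of states, in log2 units, with the standard error as a bar and a filled point where the adjusted p was under 0.05. The 4 MSN-deleted points minus wild type are open and within 0.61 of 0, and the 12 double-loss points are filled and lie between -1.17 and -3.38.

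Between 10 and 30 min at 37 °C, RPN4 fell in wild type (-0.87 ± 0.26, adjusted p = 0.00909) and rose in Hsf1-depleted cells (1.23 ± 0.26, adjusted p = 0.000233). At 42 °C the wild-type value was -0.16 ± 0.26, adjusted p = 0.672, not called, and RPN4 rose in Hsf1-depleted cells (0.74 ± 0.26, adjusted p = 0.0213). In MSN-deleted cells the change was -0.48 ± 0.26, adjusted p = 0.239 at 37 °C and -0.36 ± 0.26, adjusted p = 0.295 at 42 °C. In double loss it was 0.23 ± 0.27, adjusted p = 0.525 and -0.09 ± 0.26, adjusted p = 0.821. In wild type, 42 °C exceeded 37 °C by 1.51 ± 0.27, adjusted p = 1.71e-05 at 10 min and 2.22 ± 0.27, adjusted p = 1.56e-09 at 30 min. The wild-type fall at 37 °C lost its call at -0.63 without wild-type 37 °C 10 min library 3. The call was lost too with library totals alone (-0.45) and without the 5 outlying libraries (-0.63). The Hsf1-depleted rise at 42 °C lost its call at 0.55 to 0.72 without Hsf1-depleted 42 °C 10 min library 3 or 42 °C 30 min library 2 or 3. The MSN-deleted value at 42 °C gained a call without the 5 outlying libraries (-0.63).

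Before heat, subunit genes were expressed at levels that spanned a wide range for parts of one complex. Per kb of gene length in wild type at 25 °C, the highest were PRE8 at 384 ± 118, PRE4 at 353 ± 23.8 and SCL1 at 341 ± 42.9 CPM per kb (SD, n = 3), which encode alpha 2, beta 7 and alpha 1. The lowest were RPN8 at 36.4 ± 12.8, RPN11 at 38.7 ± 14.1 and RPN1 at 40.5 ± 12.3, encoding lid subunits and a base scaffold, and RPN4 itself was at 39.2 ± 10.2. PRE8, PRE4 and SCL1 overlap within their SDs, as do RPN8, RPN11, RPN4 and RPN1. Every library of the first 3 lay above every library of the last 4.

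**Figure D3:**
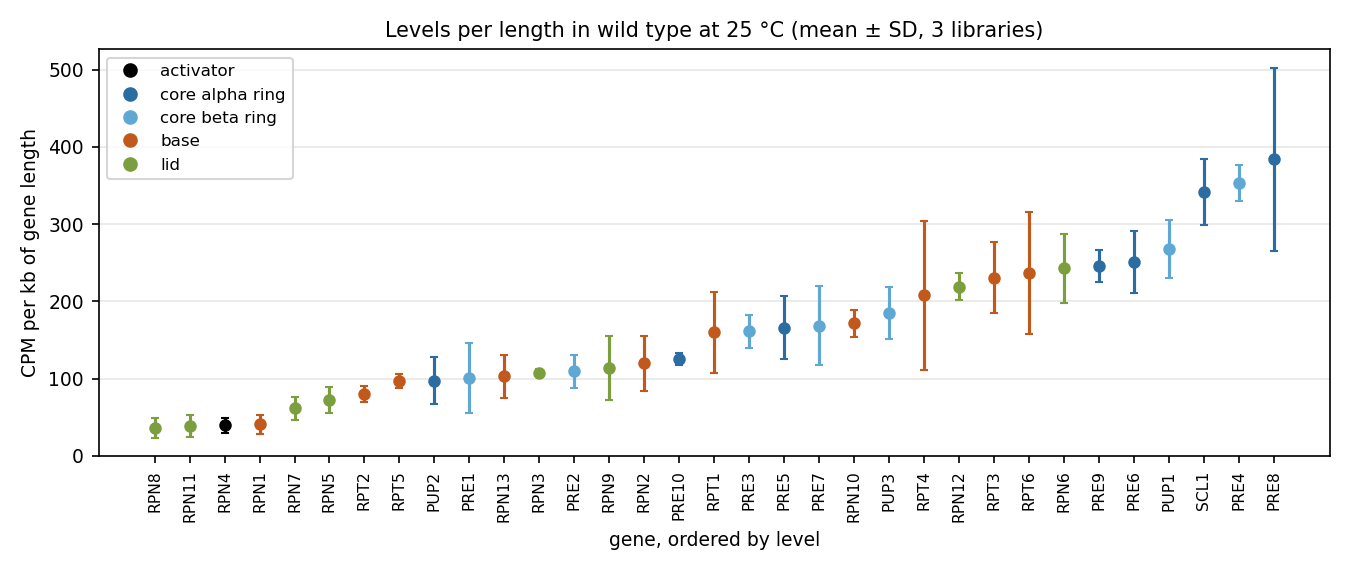
Level of RPN4 and the 32 subunit genes in wild type at 25 °C, in CPM per kb of gene length, as mean ± SD of 3 libraries, ordered from low to high and coloured by place in the complex. Alpha and beta ring genes fill the top 3 places, and RPN4 sits among the lowest genes.

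At 25 °C few genes differed between states. RPN4 was -0.5 ± 0.27, adjusted p = 0.688 in Hsf1-depleted, 0.4 ± 0.26, adjusted p = 1 in MSN-deleted and -0.42 ± 0.26, adjusted p = 0.949 in double-loss cells relative to wild type. It was -0.82 ± 0.27, adjusted p = 0.73 in double loss relative to MSN-deleted cells. Of the 32 subunit genes 1 was called, RPT6 in Hsf1-depleted cells (-0.78 ± 0.18, adjusted p = 0.0463), where 0.214% of all genes were called. In that comparison SCL1, PRE3, RPT2, RPT4, RPN1, RPN3 and RPN7 also had an unadjusted p under 0.05 in edgeR. All had lower estimates in Hsf1-depleted cells and were not called. The other comparisons called 0 subunit genes, against 0.148%, 0.527% and 0.346% of all genes in the same order, with 2, 6 and 1 at an unadjusted p under 0.05. Misses at 25 °C do not show equal levels. Median subunit differences were -0.43, -0.08, -0.3 and -0.16. The RPT6 call ended at -0.8 to -0.48 without Hsf1-depleted 25 °C library 1 or 3 or wild-type 25 °C library 1, and with RLE scaling (-0.76), with library totals alone (-0.98), with no filter on low counts (-0.78), with a replicate block (-0.78) and without the 5 outlying libraries (-0.65), and the count was 0 without Hsf1-depleted 25 °C library 1 or 3 or wild-type 25 °C library 1, and 2 lower without wild-type 25 °C library 2 or 3. It was also 0 with RLE scaling, library totals alone, no filter on low counts, a replicate block or without the 5 outlying libraries and 2 lower with DESeq2. In double loss against wild type the count was 1 lower without the 5 outlying libraries.

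In wild type, while RPN4 rose, more subunit genes were called lower than higher in each heat condition, though at 37 °C 10 min not under every alternative. The share called lower exceeded that of all genes at 37 °C 30 min alone. After 30 min at 37 °C, 17 of 32 fell and 0 rose (53.1% lower, against 19.8% of all genes lower and 21.5% higher), with a median log2 change of -0.61 against -0.01 over all genes. The falls covered 6 of 8 lid genes, 7 of 10 base genes, 2 of 7 alpha and 2 of 7 beta genes. Examples that held without any single library were RPT6 (-0.86 ± 0.18, adjusted p = 0.00018) and RPT5 (-0.67 ± 0.20, adjusted p = 0.00739), ATPases of the base, and the catalytic beta 1 gene PRE3 (-0.51 ± 0.14, adjusted p = 0.00315). The lowest estimates were PRE1, beta 4 (-1.26 ± 0.52, adjusted p = 0.046), RPN8 of the lid (-1.25 ± 0.54, adjusted p = 0.0593, not called) and RPN11, the deubiquitinase (-1.24 ± 0.43, adjusted p = 0.0176), and the highest was RPN12 (0.19 ± 0.18, adjusted p = 0.412). The count was 5 to 8 lower without wild-type 25 °C library 1 or 3 or 37 °C 30 min library 1 or 3. It was also 6 lower with library totals alone. The call of PRE1 ended at -1.12 to -0.82 without wild-type 25 °C library 3 or 37 °C 30 min library 1 or 3. It was lost as well with library totals alone (-1.41). That of RPN11 ended at -1.14 to -0.92 without wild-type 25 °C library 3 or 37 °C 30 min library 1 or 3. This call was also lost with library totals alone (-1.39).

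After 10 min at 37 °C, 3 subunit genes were higher and 5 lower (9.38% and 15.6%), smaller shares than the 27.9% and 28.5% of all genes. The higher genes were RPN12, a lid subunit (0.57 ± 0.18, adjusted p = 0.00648), PUP1, catalytic beta 2 (0.5 ± 0.18, adjusted p = 0.0152), and SCL1, alpha 1 (0.47 ± 0.17, adjusted p = 0.0184). RPN12 lost its call at 0.43 without wild-type 37 °C 10 min library 3. That call ended too with library totals alone (0.0415). The call of PUP1 ended at 0.33 to 0.45 without wild-type 25 °C library 1 or 2 or 37 °C 10 min library 2, and with library totals alone (-0.0067, the opposite direction), and that of SCL1 at 0.37 to 0.4 without wild-type 25 °C library 2 or 37 °C 10 min library 3. It ended likewise with library totals alone (-0.0469, the opposite direction) and without the 5 outlying libraries (0.4). The lowest were RPN13, a ubiquitin receptor (-1.52 ± 0.48, adjusted p = 0.00624), PUP2, alpha 5 (-1.26 ± 0.50, adjusted p = 0.0274), and RPN7 of the lid (-0.97 ± 0.39, adjusted p = 0.0322). The RPN13 call ended at -1.17 without wild-type 37 °C 10 min library 3. PUP2 ended at -1.26 to -0.83 without wild-type 25 °C library 3 or 37 °C 10 min library 1 or 3. It also ended without the 5 outlying libraries (-0.83). The RPN7 call ended at -1.0 to -0.83 without wild-type 25 °C library 1 or 3 or 37 °C 10 min library 1 or 2 or 3. The counts were 2 higher and 1 lower without wild-type 37 °C 10 min library 3. They were also 5 higher and 5 lower with RLE scaling or another TMM reference library, 7 lower with library totals alone, 6 higher and 5 lower with DESeq2 and 4 higher and 3 lower without the 5 outlying libraries.

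At 42 °C the wild-type counts were 1 higher and 4 lower after 10 min, against 29.1% and 26.5% of all genes, and 3 higher and 10 lower after 30 min, against 35.9% and 36%. Each count was a smaller share of the subunit genes than the share of all genes beside it. Median subunit changes were -0.23 and -0.49. The ATPase gene RPT6 stood at 398, 219 and 247 CPM at 25 °C, 161, 159 and 112 CPM after 10 min and 127, 162 and 159 CPM after 30 min, so that heated libraries lay below all those at 25 °C. Its log2 change was -1.0 ± 0.18, adjusted p = 1.01e-05 and -0.95 ± 0.18, adjusted p = 1.42e-05. Another base ATPase, RPT4, fell after both times (-0.89 ± 0.23, adjusted p = 0.00126 and -0.97 ± 0.24, adjusted p = 0.000305), and the call after 10 min ended at -0.44 without wild-type 25 °C library 1. After 30 min, PRE3 (0.94 ± 0.14, adjusted p = 8.16e-08), SCL1 (0.77 ± 0.17, adjusted p = 0.000123) and PRE4, beta 7 (0.55 ± 0.16, adjusted p = 0.00226), rose, and RPN7 was lowest (-1.24 ± 0.39, adjusted p = 0.00475). With library totals alone PRE3 (0.38) and SCL1 (0.21) lost their calls and PRE4 turned to -0.0122. After 10 min the counts were 1 higher and 2 lower without wild-type 25 °C library 1 or 3, and 3 lower without wild-type 42 °C 10 min library 3, and 8 lower with library totals alone, and after 30 min 4 higher and 8 lower with RLE scaling or another TMM reference library and 20 lower with library totals alone.

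**Figure D4:**
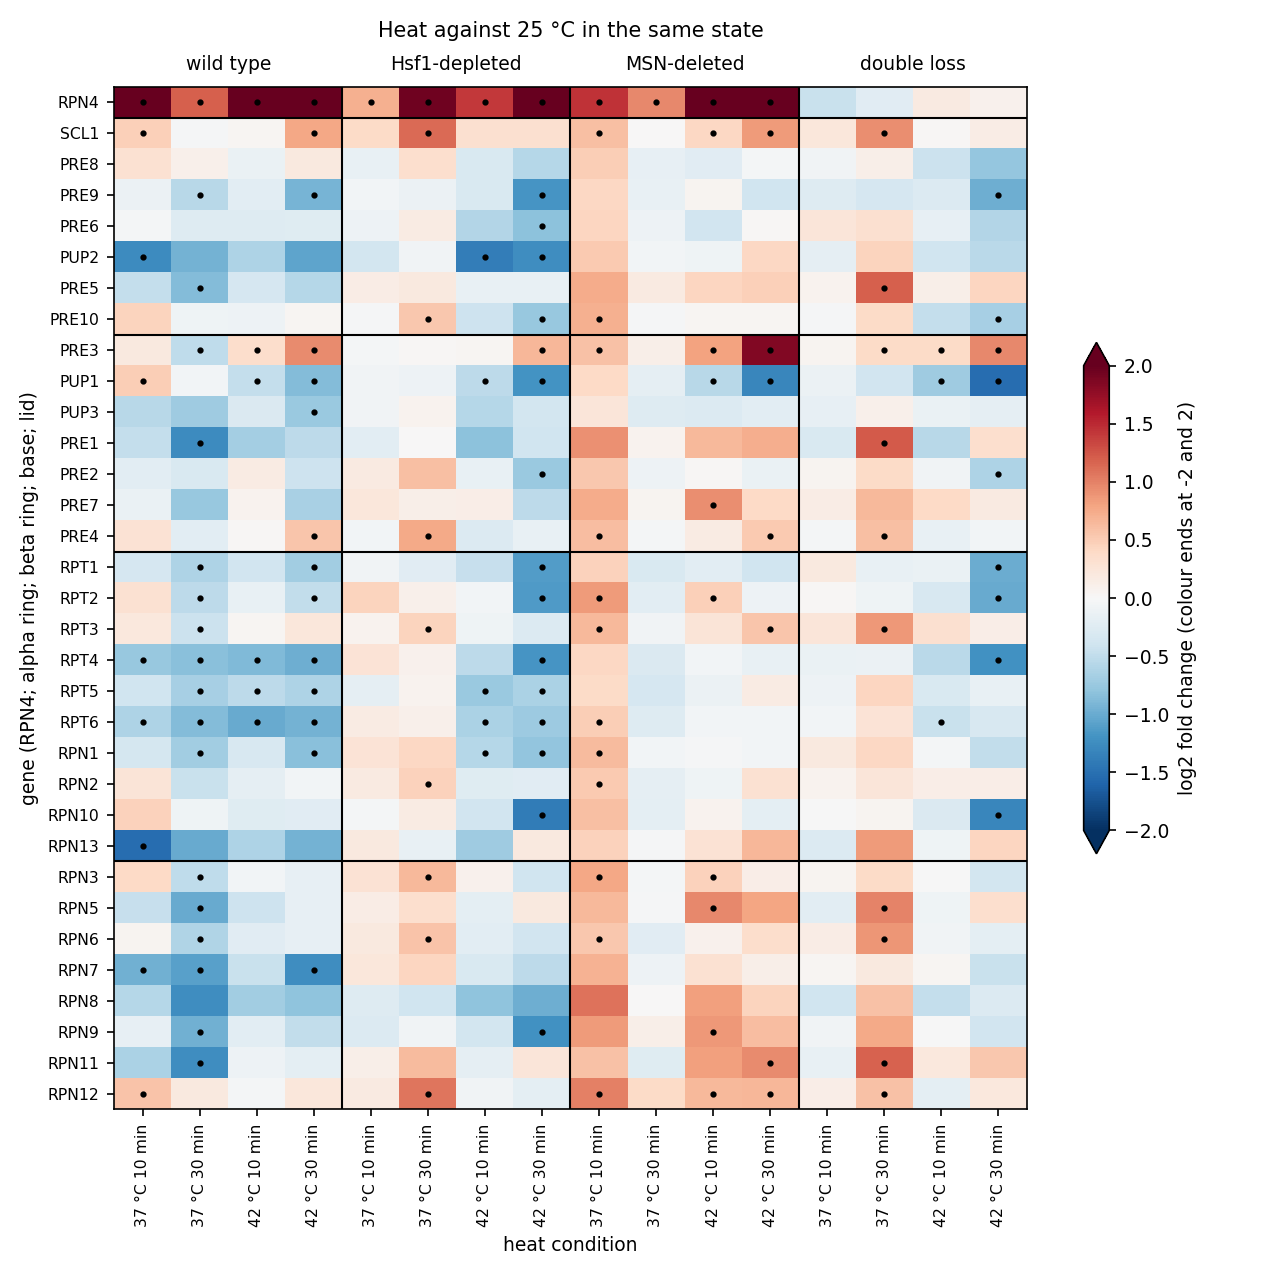
Log2 fold change from 25 °C of the same state for RPN4 and the 32 subunit genes (rows, in order alpha ring, beta ring, base, lid) in 16 heat conditions (columns, in 4 blocks of states), red for higher and blue for lower, with a dot where the adjusted p was under 0.05. RPN4 is dotted in 12 of 16 columns and in none of the double-loss block. The wild-type 37 °C 30 min column is mostly blue and the MSN-deleted 37 °C 10 min column is red throughout.

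In Hsf1-depleted cells, the called subunit genes were higher at 37 °C 30 min and nearly all lower at 42 °C. After 10 min at 37 °C none was called (edgeR; 2 at an unadjusted p under 0.05, and 0 also with DESeq2), against 22.6% and 21.1% of all genes higher and lower. After 30 min, 8 rose and 0 fell, where 30.1% of all genes were higher and 30.6% lower, so the share that rose was not above the background. SCL1 went from 192, 175 and 213 CPM to 379, 416 and 476 CPM (1.13 ± 0.18, adjusted p = 2.72e-07), with no overlap. RPN12 (1.08 ± 0.18, adjusted p = 1.33e-06) and PRE4 (0.75 ± 0.16, adjusted p = 8.11e-05) were next, and these 3 held without any single library. The count after 30 min was 4 higher with library totals alone, and at 37 °C 10 min it was 1 higher without Hsf1-depleted 25 °C library 3 or 37 °C 10 min library 3. It was also 2 higher with a term for the library set.

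At 42 °C the Hsf1-depleted counts were 0 higher and 5 lower after 10 min (28.7% and 25.2% of all genes) and 1 higher and 14 lower after 30 min (35.8% and 34.4%), or 43.8% lower at the later time. RPN10, a ubiquitin receptor, stood at 161, 115 and 173 CPM at 25 °C and at 45.9, 68.4 and 56.9 CPM after 30 min at 42 °C. Its libraries did not overlap, and it changed by -1.39 ± 0.28, adjusted p = 1.95e-05. RPN9 of the lid (-1.22 ± 0.38, adjusted p = 0.00416) and PRE9, alpha 3 (-1.18 ± 0.23, adjusted p = 1.64e-05), also fell. So did the ATPase genes RPT4 (-1.17 ± 0.24, adjusted p = 2.79e-05), RPT2 (-1.14 ± 0.20, adjusted p = 2.77e-06) and RPT1 (-1.11 ± 0.23, adjusted p = 3.57e-05), and these 5 and RPN10 held without any single library, though RPN9 lost its call with library totals alone (-0.98). PRE3 was the gene that rose (0.66 ± 0.14, adjusted p = 5.86e-05). PUP2 was low at both times (-1.39 ± 0.50, adjusted p = 0.0179 and -1.25 ± 0.50, adjusted p = 0.024). Its call after 10 min ended at -1.35 to -0.95 without Hsf1-depleted 25 °C library 2 or 42 °C 10 min library 1 or 2. After 30 min it ended at -1.18 to -0.81 without Hsf1-depleted 25 °C library 2 or 3 or 42 °C 30 min library 2 or 3. The call was lost too with library totals alone (-1.06). The count after 10 min was 3 lower without Hsf1-depleted 25 °C library 3 or 42 °C 10 min library 1 or 2, and 8 lower without Hsf1-depleted 25 °C library 1. It was also 12 lower without the 5 outlying libraries. The later count was 1 higher and 6 lower with library totals alone.

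In MSN-deleted cells, subunit genes were higher after 10 min at 37 °C. All 32 estimates were above 0, between 0.24 and 1.09, and 12 were called higher and 0 lower (37.5% higher, against 13.8% of all genes higher and 18.1% lower). The median was 0.59, against 0.03 over all genes. RPN12 rose from 194, 166 and 166 CPM to 313, 331 and 417 CPM (1.01 ± 0.18, adjusted p = 1.12e-05), without overlap. The ATPase genes RPT2 (0.85 ± 0.20, adjusted p = 0.000484) and RPT3 (0.65 ± 0.15, adjusted p = 0.000434), the lid gene RPN3 (0.78 ± 0.19, adjusted p = 0.00114) and PRE10, alpha 7 (0.71 ± 0.20, adjusted p = 0.00511), were among the others. RPN8 had the highest estimate (1.09 ± 0.53, adjusted p = 0.117) and was not called.

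After 30 min at 37 °C no subunit gene was called in MSN-deleted cells (edgeR; 1 at an unadjusted p under 0.05, and 0 with DESeq2), against 12.5% and 12.8% of all genes. At 42 °C the counts were 8 higher and 1 lower after 10 min (25.5% and 21.9% of all genes) and 6 higher and 1 lower after 30 min (32.6% and 30%). RPN12 rose at both times (0.65 ± 0.18, adjusted p = 0.00232 and 0.66 ± 0.18, adjusted p = 0.00132), the later call ending with library totals alone (0.49). The highest estimates after 10 min, RPN5 (0.95 ± 0.38, adjusted p = 0.0355), PRE7 (0.93 ± 0.36, adjusted p = 0.0313) and RPN9 (0.87 ± 0.37, adjusted p = 0.049), lost their calls without single libraries. RPN5 ended at 0.67 to 0.94 without MSN-deleted 25 °C library 2 or 3 or 42 °C 10 min library 2 or 3. It was lost as well with library totals alone (1.02). PRE7 ended at 0.68 to 0.97 without MSN-deleted 25 °C library 1 or 2 or 3 or 42 °C 10 min library 2 or 3. This call was also lost with library totals alone (1.02). RPN9 ended at 0.47 to 0.91 without MSN-deleted 25 °C library 1 or 2 or 3 or 42 °C 10 min library 2 or 3. That call ended too with library totals alone (0.97), with no filter on low counts (0.87), with another TMM reference library (0.85) and with a replicate block (0.82). The count after 10 min was 2 higher and 1 lower without MSN-deleted 25 °C library 2 or 3 or 42 °C 10 min library 2, 3 higher and 1 lower without MSN-deleted 42 °C 10 min library 3, and 4 higher and 1 lower without MSN-deleted 25 °C library 1. It was also 2 higher and 1 lower with library totals alone. After 30 min it was 2 higher and 1 lower with library totals alone, and after 30 min at 37 °C 1 higher with a term for the library set.

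In double-loss cells, where RPN4 showed no called change, 10 subunit genes rose and 0 fell after 30 min at 37 °C (31.2% higher, near the 25.3% of all genes that were higher, with 26.8% lower). PRE5, alpha 6, went from 52, 130.5 and 75.8 CPM at 25 °C to 186, 277 and 129 CPM (1.19 ± 0.34, adjusted p = 0.00271), with 1 heated library inside the range at 25 °C. Libraries at the same place in these lists share a set, and PRE5 rose in each set. SCL1 (0.93 ± 0.18, adjusted p = 1.55e-05), RPN6 of the lid (0.88 ± 0.20, adjusted p = 0.000296), RPT3 (0.86 ± 0.15, adjusted p = 3.21e-06) and PRE4 (0.61 ± 0.16, adjusted p = 0.00138) rose too, and these 5 held without any single library. PRE1 (1.23 ± 0.51, adjusted p = 0.0383) and RPN11 (1.18 ± 0.41, adjusted p = 0.0153) were also called. PRE1 ended at 0.39 to 1.01 without double-loss 25 °C library 1 or 3 or 37 °C 30 min library 2, and without the 5 outlying libraries (1.18), and RPN11 at 0.63 to 1.07 without double-loss 25 °C library 1 or 3 or 37 °C 30 min library 2. The count was 6 higher without double-loss 25 °C library 1 or 3 or 37 °C 30 min library 2, and 15 higher and 1 lower without double-loss 25 °C library 2, and with library totals alone 15 genes were higher and 0 lower.

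After 10 min at 37 °C no subunit gene was called in double loss (edgeR; 0 at an unadjusted p under 0.05, and 0 with DESeq2), against 8.34% and 11.9% of all genes. At 42 °C the counts were 1 higher and 2 lower after 10 min (22.7% and 21.6% of all genes) and 1 higher and 8 lower after 30 min (31.9% and 32.5%). RPN10 went from 203, 81.4 and 116 CPM to 44, 62.4 and 55.5 CPM after 30 min (-1.3 ± 0.27, adjusted p = 5.65e-05). RPT4 (-1.22 ± 0.24, adjusted p = 1.68e-05), RPT2 (-1.0 ± 0.20, adjusted p = 2.06e-05), RPT1 (-0.99 ± 0.23, adjusted p = 0.000193) and PRE9 (-0.98 ± 0.23, adjusted p = 0.00023) fell as well, and all 5 held without any single library. On library totals alone RPT2, RPT1 and PRE9 stood at -0.59, -0.54 and -0.58 and lost their calls. The counts were 1 lower without double-loss 25 °C library 1 or 42 °C 10 min library 3, and 1 higher and 4 lower with RLE scaling, 2 higher with library totals alone, 4 lower with another TMM reference library and 2 higher and 2 lower without the 5 outlying libraries after 10 min. After 30 min they were 5 higher and 3 lower with library totals alone and 6 higher and 8 lower without the 5 outlying libraries.

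At 42 °C 30 min, 2 catalytic beta genes went opposite ways in every state. Other subunit genes split likewise, such as SCL1 higher and RPT4 lower in wild type. The shares of all genes called higher and lower in this condition are given above for each state. PRE3 (beta 1) held 109, 88.3 and 116 CPM at 25 °C and 176, 213 and 213 CPM after heat in wild type, and 95.5, 98.1 and 102 CPM and 374, 355 and 338 CPM in MSN-deleted cells. Its log2 change was 0.94 ± 0.14, adjusted p = 8.16e-08 in wild type, 0.66 ± 0.14, adjusted p = 5.86e-05 in Hsf1-depleted, 1.85 ± 0.14, adjusted p = 1.39e-15 in MSN-deleted and 0.96 ± 0.14, adjusted p = 7.46e-08 in double-loss cells. PUP1 (beta 2) held 190.1, 196 and 244 CPM and 137, 105 and 102 CPM in wild type, and 239, 176 and 223 CPM and 71.6, 75.7 and 73.9 CPM in double loss. Its change was -0.87 ± 0.18, adjusted p = 3.2e-05, -1.19 ± 0.18, adjusted p = 1.28e-07, -1.3 ± 0.18, adjusted p = 2.4e-08 and -1.53 ± 0.18, adjusted p = 5.32e-10 in the same order of states. No heated library overlapped its control for either gene in any state, and all 8 calls held without any single library. The wild-type rise of PRE3 was not called with library totals alone (0.38), and the other 7 calls held there. PRE2, the third catalytic gene (beta 5), was -0.41 ± 0.27, adjusted p = 0.178, not called, in wild type and -0.14 ± 0.27, adjusted p = 0.683, not called, in MSN-deleted cells. It was called lower in Hsf1-depleted cells (-0.75 ± 0.28, adjusted p = 0.015) and in double loss (-0.61 ± 0.28, adjusted p = 0.0474), and neither call was stable. The Hsf1-depleted call ended at -0.44 without Hsf1-depleted 25 °C library 3. It ended likewise with library totals alone (-0.56). The double-loss call ended at -0.58 to -0.56 without double-loss 25 °C library 2 or 3 or 42 °C 30 min library 1 or 3. It also ended with RLE scaling (-0.52), with library totals alone (-0.18), with another TMM reference library (-0.55), with DESeq2 (-0.52) and without the 5 outlying libraries (-0.58).

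Summed over the 32 subunit genes, the level moved over a narrower range than that of RPN4. Wild type went from 5230.3 ± 729.5 CPM (SD, n = 3) at 25 °C to 5324 ± 876 and 3854 ± 352 CPM after 10 and 30 min at 37 °C, and to 4442 ± 109 and 4637 ± 35.6 CPM at 42 °C. Hsf1-depleted cells went from 4121 ± 409 to 5354 ± 679.5 CPM after 30 min at 37 °C and to 2944 ± 97.3 CPM after 30 min at 42 °C. The highest group was MSN-deleted at 37 °C 10 min, with 7484 ± 744 CPM against 4992 ± 273 CPM at 25 °C, and its 3 libraries lay above all others of that state. Double loss reached 5851 ± 764 CPM after 30 min at 37 °C from 4299.6 ± 343 CPM at 25 °C, and ended at 3583 ± 106 CPM after 30 min at 42 °C.

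**Figure D5:**
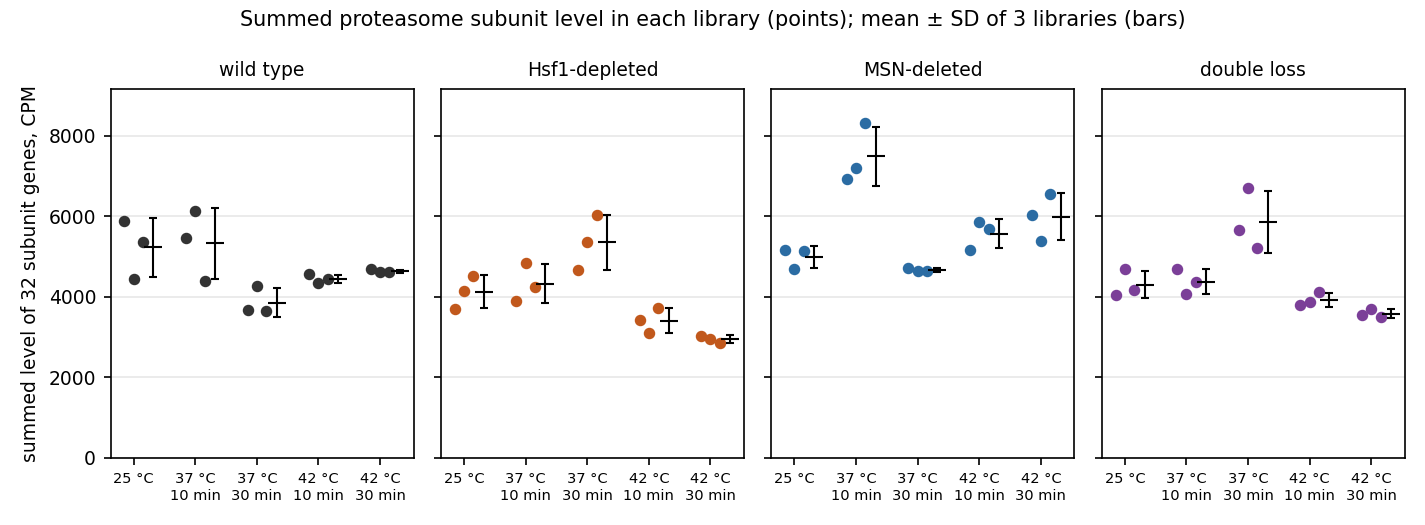
Summed level of the 32 subunit genes in CPM, with one panel per state, one point per library and the mean ± SD of 3 libraries as bars. The sums stay between 2839 and 8327 CPM, with the highest points in MSN-deleted cells after 10 min at 37 °C and the lowest in Hsf1-depleted cells after 30 min at 42 °C.

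Whether subunit responses differed from wild type was tested gene by gene. At 37 °C 30 min the Hsf1-depleted response was higher for 13 genes and lower for 0 (10.2% and 16.4% of all genes higher and lower). RPN11 (1.87 ± 0.60, adjusted p = 0.0157) and RPN7 (1.51 ± 0.55, adjusted p = 0.0346) were highest. The RPN11 call ended at 1.55 without Hsf1-depleted 25 °C library 1 or wild-type 25 °C library 3. The call was lost too with library totals alone (1.89). The double-loss response was higher for 16 and lower for 0 (11.7% and 18.6%). The highest were PRE1 (2.5 ± 0.73, adjusted p = 0.00697), RPN11 (2.42 ± 0.60, adjusted p = 0.00155) and PRE5 (2.06 ± 0.48, adjusted p = 0.000806). Of these, RPN11 and PRE5 held without any single library, and PRE1 ended at 1.65 without double-loss 37 °C 30 min library 2.

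The median difference was 0.88 for Hsf1-depleted and 0.92 for double-loss cells, against -0.02 and -0.04 over all genes. Each difference subtracts the 25 °C level of its own state, and the median subunit estimates at 25 °C lay below wild type in both states, as given above. Both comparisons also subtract the same wild-type response, so their counts are not independent. RPN7 lost its call in Hsf1-depleted minus wild type at 1.2 to 1.44 without Hsf1-depleted 25 °C library 1 or 3 or 37 °C 30 min library 2 or wild-type 25 °C library 1 or 3 or 37 °C 30 min library 1 or 3. It was lost as well with library totals alone (1.49) and without the 5 outlying libraries (1.2). For MSN-deleted cells at the same condition no gene was called (edgeR; 4 at an unadjusted p under 0.05, and 1 with DESeq2), against 0.0329% and 0.231% of all genes, with a median of 0.44. The Hsf1-depleted count was 8 higher without wild-type 25 °C library 1. It was also 6 higher with library totals alone and 20 higher with a term for the library set.

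At 37 °C 10 min the MSN-deleted response was higher for 5 subunit genes and lower for 0 (4.45% and 11% of all genes), 4 of them in the base. Of the called genes RPN13 (1.98 ± 0.66, adjusted p = 0.0348) and RPN7 (1.66 ± 0.55, adjusted p = 0.0321) were highest. The others were the ATPase genes RPT4 (1.18 ± 0.33, adjusted p = 0.0118) and RPT6 (1.1 ± 0.26, adjusted p = 0.00254) and the scaffold gene RPN1 (0.98 ± 0.35, adjusted p = 0.0489). The count was 1 to 3 higher without MSN-deleted 25 °C library 1 or 2 or 3 or 37 °C 10 min library 3 or wild-type 25 °C library 1 or 3 or 37 °C 10 min library 3, and 10 higher without wild-type 37 °C 10 min library 2. It was also 11 higher with library totals alone, 10 higher with DESeq2 or a term for the library set and 2 higher without the 5 outlying libraries. RPN13 lost its call at 1.5 to 2.02 without MSN-deleted 25 °C library 1 or 2 or 3 or 37 °C 10 min library 3 or wild-type 25 °C library 1 or 3 or 37 °C 10 min library 3. This call was also lost without the 5 outlying libraries (1.63). The RPN7 call ended at 1.33 to 1.72 without MSN-deleted 25 °C library 1 or 2 or 3 or 37 °C 10 min library 3 or wild-type 25 °C library 1 or 3 or 37 °C 10 min library 3. RPT4 lost its call at 0.73 to 0.96 without wild-type 25 °C library 1 or 37 °C 10 min library 3, and without the 5 outlying libraries (0.96), and RPN1 at 0.7 to 1.04 without MSN-deleted 25 °C library 1 or 2 or 3 or 37 °C 10 min library 1 or 2 or 3 or wild-type 25 °C library 1 or 37 °C 10 min library 2 or 3. That call ended too with no filter on low counts (0.98), with a replicate block (0.97) and without the 5 outlying libraries (0.81). Hsf1-depleted and double-loss responses at 37 °C 10 min gave 0 and 0 called subunit genes (edgeR; 5 and 2 at an unadjusted p under 0.05, 2 and 1 with DESeq2), against 1.71% and 1.63% and 12.5% and 15.1% of all genes. The Hsf1-depleted count was 1 higher without wild-type 25 °C library 3, 2 higher without wild-type 25 °C library 2 or 37 °C 10 min library 1, and 4 higher and 1 lower without Hsf1-depleted 25 °C library 2. It was also 1 higher with library totals alone, 1 higher and 1 lower with DESeq2 and 3 higher and 1 lower with a term for the library set. The double-loss count was 1 lower without wild-type 25 °C library 3, 1 higher without wild-type 25 °C library 2, and 2 higher and 1 lower without double-loss 25 °C library 2 or wild-type 37 °C 10 min library 1. It was also 1 lower with RLE scaling, another TMM reference library or DESeq2, 4 higher with library totals alone, 1 higher and 1 lower with a term for the library set and 1 higher and 2 lower without the 5 outlying libraries.

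At 42 °C, after 10 min the counts were 0 higher and 0 lower for Hsf1-depleted (0.0659% and 1.07% of all genes), 1 higher and 0 lower for MSN-deleted (3.64% and 7.2%) and 0 higher and 0 lower for double-loss cells (3.43% and 8.62%). The called gene was RPT6 in MSN-deleted cells (0.94 ± 0.26, adjusted p = 0.0119). After 30 min they were 0 higher and 0 lower (0.84% and 2.73%), 3 higher and 0 lower (15.4% and 12.3%) and 0 higher and 5 lower (19.7% and 17.1%). Higher in MSN-deleted cells were PRE3 (0.91 ± 0.20, adjusted p = 0.000542), RPT6 (0.89 ± 0.26, adjusted p = 0.00825) and RPT5 (0.78 ± 0.29, adjusted p = 0.0372). Lower in double loss were RPN10 (-1.07 ± 0.38, adjusted p = 0.0238), PRE10 (-0.71 ± 0.29, adjusted p = 0.0473), PUP1 (-0.65 ± 0.25, adjusted p = 0.0372), SCL1 (-0.62 ± 0.25, adjusted p = 0.0426) and PRE4 (-0.61 ± 0.23, adjusted p = 0.0316). For the counts of 0, unadjusted p-values under 0.05 numbered 0, 1 and 5, and DESeq2 called 0, 0 and 3, for Hsf1-depleted and double loss at 10 min and Hsf1-depleted at 30 min.

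These 42 °C counts moved with the libraries left out, the scale and the model. The MSN-deleted count at 10 min was 0 without wild-type 25 °C library 1, and 2 higher without MSN-deleted 42 °C 10 min library 1 or wild-type 25 °C library 2. It was also 2 higher with library totals alone, 3 higher with DESeq2 or a term for the library set and 9 higher without the 5 outlying libraries. At 30 min it was 1 higher without wild-type 25 °C library 1, and 6 to 7 higher without MSN-deleted 42 °C 30 min library 2 or wild-type 25 °C library 2. It was also 6 higher with DESeq2 and 9 higher with a term for the library set or without the 5 outlying libraries. The call of RPT6 in MSN-deleted cells ended at 0.63 to 0.79 without wild-type 25 °C library 1 or 42 °C 10 min library 3 after 10 min, and at 0.59 without wild-type 25 °C library 1 after 30 min. RPT5 ended at 0.69 to 0.77 without MSN-deleted 25 °C library 2 or 42 °C 30 min library 3 or wild-type 25 °C library 1 or 3 or 42 °C 30 min library 1 or 2. The Hsf1-depleted count at 30 min was 2 lower without Hsf1-depleted 25 °C library 2. It was also 1 lower with RLE scaling, 3 lower with DESeq2 and 2 lower with a term for the library set. The double-loss count at 10 min was 3 higher with library totals alone. At 30 min the double-loss count and its direction changed, to 0 without double-loss 25 °C library 1 or wild-type 42 °C 30 min library 1, 1 higher without wild-type 25 °C library 2, 1 lower without double-loss 25 °C library 3 or 42 °C 30 min library 1, 2 lower without wild-type 25 °C library 1, 3 lower without wild-type 42 °C 30 min library 2, 1 higher and 2 lower without double-loss 42 °C 30 min library 3, and 5 higher and 5 lower without double-loss 25 °C library 2. It was also 12 higher with library totals alone, 1 higher and 5 lower with DESeq2, 4 higher and 5 lower with a term for the library set and 9 higher and 5 lower without the 5 outlying libraries. Each of the 5 lower genes lost its call without single libraries. RPN10 ended at -1.0 to -0.64 without double-loss 25 °C library 1 or 42 °C 30 min library 1 or wild-type 25 °C library 2 or 42 °C 30 min library 1. It ended likewise with library totals alone (0.0313, the opposite direction). PRE10 ended at -0.75 to -0.57 without double-loss 25 °C library 1 or 3 or 42 °C 30 min library 1 or 2 or wild-type 25 °C library 1 or 2 or 3 or 42 °C 30 min library 1 or 3. It also ended with library totals alone (0.34, the opposite direction) and with no filter on low counts (-0.71). PUP1 ended at -0.66 to -0.51 without double-loss 25 °C library 1 or 3 or 42 °C 30 min library 1 or 3 or wild-type 25 °C library 1 or 2 or 42 °C 30 min library 1. The call was lost too with library totals alone (0.41, the opposite direction). SCL1 ended at -0.66 to -0.52 without double-loss 25 °C library 1 or 2 or 3 or 42 °C 30 min library 1 or 3 or wild-type 25 °C library 2 or 42 °C 30 min library 1 or 2, and with library totals alone (0.37, the opposite direction) and without the 5 outlying libraries (-0.56), and PRE4 at -0.6 to -0.54 without double-loss 25 °C library 1 or 3 or 42 °C 30 min library 3 or wild-type 25 °C library 1 or 2 or 42 °C 30 min library 1 or 2. It was lost as well with library totals alone (0.42, the opposite direction).

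Set against the single losses (a comparison added after the data had been seen), few subunit responses in double loss were called. Against Hsf1-depleted cells none was called in any of the 4 conditions (edgeR; 0, 1, 0 and 0 at an unadjusted p under 0.05 for 37 °C 10 and 30 min and 42 °C 10 and 30 min, and 0, 0, 0 and 0 with DESeq2), while 9.08%, 25.3%, 7.69% and 22.4% of all genes were. Against MSN-deleted cells 1, 4, 0 and 1 were called, against 4.63%, 20.7%, 1.58% and 3.72% of all genes. The called gene at 37 °C 10 min was RPN12 (-0.88 ± 0.25, adjusted p = 0.0282). At 37 °C 30 min they were RPN6 (1.11 ± 0.29, adjusted p = 0.00375), RPT3 (0.94 ± 0.21, adjusted p = 0.000708), SCL1 (0.92 ± 0.25, adjusted p = 0.00491) and PRE4 (0.65 ± 0.23, adjusted p = 0.0345). At 42 °C 30 min it was PRE3 (-0.89 ± 0.20, adjusted p = 0.00242). RPN6 held without any single library but lost its call with library totals alone (1.29). RPN12 ended at -0.89 to -0.74 without double-loss 25 °C library 1 or 2 or 37 °C 10 min library 2 or 3 or MSN-deleted 25 °C library 2 or 3 or 37 °C 10 min library 3. This call was also lost with library totals alone (-0.75). PRE4 ended at 0.6 to 0.66 without double-loss 25 °C library 1 or 2 or 37 °C 30 min library 2 or MSN-deleted 25 °C library 2 or 3 or 37 °C 30 min library 1 or 2 or 3. That call ended too with library totals alone (0.87) and without the 5 outlying libraries (0.56). PRE3 ended with library totals alone (-0.29). At 42 °C 10 min, 3 subunit genes reached a raw p under 0.05, and 1 passed with DESeq2. The Hsf1-depleted comparison at 37 °C 30 min gave 1 lower without double-loss 37 °C 30 min library 2, and 5 higher without double-loss 25 °C library 2. It was also 1 higher with library totals alone or a term for the library set and 1 higher and 1 lower without the 5 outlying libraries. At 42 °C it gave 1 higher without the 5 outlying libraries for 10 min and 8 higher without the 5 outlying libraries for 30 min. Against MSN-deleted cells at 37 °C 10 min the count was 0 without double-loss 25 °C library 1 or 2 or 37 °C 10 min library 2 or 3 or MSN-deleted 25 °C library 2 or 3 or 37 °C 10 min library 3, and 2 lower without double-loss 25 °C library 3. It was also 3 lower with RLE scaling or a term for the library set, 0 with library totals alone, 4 lower with another TMM reference library and 5 lower with DESeq2. At 37 °C 30 min it was 8 higher without double-loss 25 °C library 2, and 2 higher with library totals alone and 7 higher with a term for the library set, and at 42 °C 10 min 1 lower without double-loss 25 °C library 3 or 42 °C 10 min library 3. It was also 1 lower with DESeq2 or a term for the library set. At 42 °C 30 min it was 2 to 3 lower without double-loss 25 °C library 2 or 3. It was also 3 lower with RLE scaling or another TMM reference library, 0 with library totals alone, 4 lower with DESeq2 or a term for the library set and 2 lower without the 5 outlying libraries.

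Between 10 and 30 min at 37 °C, the called subunit genes were all lower in wild type and MSN-deleted cells and all higher in Hsf1-depleted cells and double loss. In wild type 0 higher and 10 lower were called (16% and 14.5% of all genes), led by RPN3 (-0.9 ± 0.19, adjusted p = 0.000283) and RPT2 (-0.83 ± 0.20, adjusted p = 0.000905). In MSN-deleted cells all 32 estimates were below 0 and 0 higher and 17 lower were called (10.8% and 5.67%), with RPT2 at -1.06 ± 0.20, adjusted p = 4.48e-05. In Hsf1-depleted cells 5 higher and 0 lower were called (12.5% and 19.7%), led by RPN12 (0.9 ± 0.18, adjusted p = 8.51e-05), PRE4 (0.8 ± 0.16, adjusted p = 9.78e-05) and SCL1 (0.76 ± 0.17, adjusted p = 0.000583). In double loss 11 higher and 0 lower were called (19.1% and 19.5%), led by PRE1 (1.53 ± 0.51, adjusted p = 0.0147), RPN11 (1.33 ± 0.42, adjusted p = 0.00936) and RPN5 (1.2 ± 0.38, adjusted p = 0.0103). The wild-type count was 6 lower without wild-type 37 °C 10 min library 2. It was also 0 with library totals alone. In MSN-deleted cells it was 10 to 11 lower without MSN-deleted 37 °C 10 min library 3 or 37 °C 30 min library 1, and 4 lower with library totals alone, and in Hsf1-depleted cells 3 higher without Hsf1-depleted 37 °C 10 min library 1 or 3 or 37 °C 30 min library 3. It was also 2 higher with library totals alone. In double loss it was 5 to 7 higher without double-loss 37 °C 10 min library 1 or 2 or 37 °C 30 min library 2. It was also 7 higher and 1 lower without the 5 outlying libraries. RPN3 and RPT2 in wild type lost their calls with library totals alone (-0.5 and -0.46). SCL1 in Hsf1-depleted cells ended with library totals alone (0.64). In double loss PRE1 ended at 0.69 to 1.39 without double-loss 37 °C 10 min library 1 or 2 or 37 °C 30 min library 2. It ended likewise without the 5 outlying libraries (0.69). RPN11 ended at 0.78 to 1.17 without double-loss 37 °C 10 min library 2 or 37 °C 30 min library 2. It also ended without the 5 outlying libraries (0.78). RPN5 ended at 0.6 to 1.05 without double-loss 37 °C 10 min library 1 or 37 °C 30 min library 2. The call was lost too without the 5 outlying libraries (0.6). The difference of these time courses between states was not tested.

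Between 10 and 30 min at 42 °C the counts were 3 higher and 1 lower in wild type (16.8% and 21.8% of all genes), 1 higher and 7 lower in Hsf1-depleted (16.7% and 22.5%), 2 higher and 2 lower in MSN-deleted (15.3% and 18.9%) and 1 higher and 6 lower in double-loss cells (17% and 19%). PRE3 rose in all 4 states (0.59 ± 0.14, adjusted p = 0.000597, 0.63 ± 0.14, adjusted p = 0.000346, 1.05 ± 0.14, adjusted p = 4.58e-08 and 0.58 ± 0.14, adjusted p = 0.00083 in that order), in every fit that left out a library, and the wild-type call ended with library totals alone (0.51). RPN10 fell in Hsf1-depleted cells (-1.0 ± 0.27, adjusted p = 0.00285) and in double loss (-1.01 ± 0.27, adjusted p = 0.00263). Between 37 and 42 °C in wild type, 0 higher and 5 lower were called at 10 min (20.2% and 14.1% of all genes) and 5 higher and 1 lower at 30 min (27.6% and 30.2%). PUP1 was lower at 42 °C at both times (-0.97 ± 0.18, adjusted p = 3.7e-05 and -0.81 ± 0.18, adjusted p = 0.00013), and PRE3 was higher at 30 min (1.45 ± 0.14, adjusted p = 3.64e-12). Between 10 and 30 min at 42 °C the wild-type count was 1 higher with library totals alone and 3 higher and 4 lower with a term for the library set. The Hsf1-depleted count was 1 higher and 4 lower without Hsf1-depleted 42 °C 30 min library 2. It was also 1 higher and 1 lower with library totals alone. In MSN-deleted cells it was 1 higher and 1 lower without MSN-deleted 42 °C 10 min library 2 or 42 °C 30 min library 1 or 2, and 5 higher and 1 lower with RLE scaling or another TMM reference library, 1 higher and 1 lower with library totals alone, 1 higher and 2 lower with no filter on low counts, 5 higher and 2 lower with DESeq2, 4 higher and 3 lower with a term for the library set and 2 higher and 5 lower without the 5 outlying libraries, and in double loss 2 higher and 6 lower with RLE scaling, 1 higher and 2 lower with library totals alone and 2 higher and 5 lower with another TMM reference library. Between temperatures in wild type it was 2 to 3 lower without wild-type 37 °C 10 min library 3 or 42 °C 10 min library 1 or 2, and 2 lower with library totals alone and 1 higher and 8 lower with a term for the library set at 10 min. At 30 min it was 1 higher and 3 lower with library totals alone.

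A list of 13 genes of assembly chaperones and associated proteins also held SEM1, a lid subunit gene outside the members above. Of these 13 genes, 6, 3, 3 and 4 were higher and 1, 1, 2 and 3 lower in wild type at 37 °C 10 and 30 min and 42 °C 10 and 30 min. In double loss 0, 5, 0 and 5 were higher and 1, 0, 0 and 2 lower. Of all genes, 27.9%, 21.5%, 29.1% and 35.9% were higher and 28.5%, 19.8%, 26.5% and 36% lower in wild type in the same order, and 8.34%, 25.3%, 22.7% and 31.9% higher and 11.9%, 26.8%, 21.6% and 32.5% lower in double loss. The share of the list that was higher was 46.2%, 23.1%, 23.1% and 30.8% in wild type and 0%, 38.5%, 0% and 38.5% in double loss. RPN14, a chaperone of base assembly, rose in wild type in all 4 conditions (1.12 ± 0.18, adjusted p = 6.62e-07, 0.57 ± 0.18, adjusted p = 0.00821, 0.82 ± 0.18, adjusted p = 0.000116 and 1.77 ± 0.18, adjusted p = 4.22e-12). ECM29, a proteasome-associated factor, rose at 37 °C 10 min (1.48 ± 0.29, adjusted p = 2.82e-05), and PBA1, a chaperone of the alpha ring, at 42 °C 30 min (1.63 ± 0.23, adjusted p = 3.59e-08). POC4, another chaperone of the alpha ring, was the lowest at 42 °C 30 min (-1.85 ± 0.39, adjusted p = 3.75e-05). The RPN14 response was lower in double loss than in wild type at 42 °C 30 min (-1.29 ± 0.25, adjusted p = 6.87e-05) and higher at 37 °C 30 min (1.16 ± 0.25, adjusted p = 0.000323).

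Of 10 genes of ubiquitin supply and delivery, 6, 1, 4 and 5 were higher and 0, 1, 0 and 1 lower in wild type in the same 4 conditions. In double loss 1, 5, 2 and 1 were higher and 0, 0, 0 and 2 lower. The share that was higher was 60%, 10%, 40% and 50% in wild type, against 27.9%, 21.5%, 29.1% and 35.9% of all genes, and 10%, 50%, 20% and 10% in double loss, against 8.34%, 25.3%, 22.7% and 31.9%. The shares of all genes that were lower are those given for the assembly genes. UBI4, which encodes polyubiquitin, had the largest change of the list in wild type in all 4 conditions. It stood at 78.6, 81.7 and 82.8 CPM at 25 °C and 1119, 1407 and 1542 CPM after 10 min at 42 °C in wild type (4.06 ± 0.22, adjusted p = 2.52e-20). In double loss it stood at 34.5, 29.7 and 41.7 CPM and 34.1, 41.8 and 44.6 CPM (0.19 ± 0.20, adjusted p = 0.47). In that condition its response minus that of wild type was -3.88 ± 0.28, adjusted p = 6.03e-15 in double loss and -1.85 ± 0.27, adjusted p = 5.48e-06 in Hsf1-depleted cells, and -0.37 ± 0.27, adjusted p = 0.404, not called, in MSN-deleted cells. UBI4 holds repeated ubiquitin units, so its count depends on how reads shared between repeats were treated, which is not given in the sources used here. DDI1, a shuttle of ubiquitinated proteins, rose in wild type at 37 °C 10 min (2.12 ± 0.31, adjusted p = 9.73e-08) and 42 °C 30 min (1.92 ± 0.31, adjusted p = 3.88e-07).

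Of 7 genes known in yeast to act on Rpn4 or on its promoter, 4, 2, 2 and 3 were higher and 0, 1, 2 and 2 lower in wild type. In double loss 1, 3, 3 and 3 were higher and 0, 1, 1 and 1 lower. The share that was higher was 57.1%, 28.6%, 28.6% and 42.9% in wild type, against 27.9%, 21.5%, 29.1% and 35.9% of all genes, and 14.3%, 42.9%, 42.9% and 42.9% in double loss, against 8.34%, 25.3%, 22.7% and 31.9%, with those lower as given above. HSF1 mRNA rose in wild type (1.78 ± 0.21, adjusted p = 1.07e-09 and 2.28 ± 0.22, adjusted p = 6.82e-13 at 37 °C 10 min and 42 °C 30 min) and in double loss at 37 °C 30 min (2.38 ± 0.22, adjusted p = 6.89e-13). UBR2, encoding the ubiquitin ligase that marks Rpn4, rose in double loss after 30 min at 37 °C (1.79 ± 0.15, adjusted p = 2.45e-14), by more than in wild type (1.44 ± 0.20, adjusted p = 3.31e-07 for the difference). MUB1, its partner, fell at 42 °C 30 min in wild type (-0.51 ± 0.17, adjusted p = 0.00593) and in double loss (-1.01 ± 0.17, adjusted p = 9.98e-07). PDR1 rose at 42 °C 30 min in double loss (1.14 ± 0.18, adjusted p = 3.28e-07) and was 0.23 ± 0.18, adjusted p = 0.233, not called, in wild type. Neither the fits without single libraries nor any of the other alternatives were read for these 3 lists, so how far their calls depend on the processing is not known.

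The authors' deposited table of the same 16 heat responses gave RPN4 log2 fold changes of 2.13, 1.19, 3.61 and 3.49 for wild type in the order used above. For double loss the authors' deposited table gave -0.43, -0.22, 0.19 and 0.14, with no false discovery rate under 0.05. For Hsf1-depleted cells at 37 °C 10 min its false discovery rate was 0.121, so RPN4 is not called in the authors' deposited table, unlike here. At a false discovery rate under 0.05, in the same order of conditions, the authors' deposited table has 0, 0, 0 and 3 subunit genes higher and 3, 21, 2 and 12 lower in wild type. For Hsf1-depleted cells the authors' deposited table has 0, 4, 0 and 1 subunit genes higher and 0, 0, 2 and 14 lower, and for MSN-deleted cells 24, 1, 4 and 11 subunit genes higher and 0, 0, 1 and 1 lower. For double loss the authors' deposited table has 0, 6, 0 and 1 subunit genes higher and 0, 0, 3 and 8 lower. The share of all genes called in the authors' deposited table was not computed. These subunit counts therefore have no background beside them and cannot be read as above or below it.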

How the data were processed

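Messenger RNA was sequenced as 50 bp single reads, per the labels' protocols, and the submitters' processing notes name bcl2fastq 1.8.4, featureCounts 2.0.0, DESeq2 1.28.1 and genome build R64, with no role or order. The deposited values are raw counts per gene from the authors, and how strand and shared reads were handled is not stated in those notes. In addition, the authors' deposited table holds their own log2 fold changes and adjusted p-values for heat against 25 °C, and is used only where it is named.

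Counts of all 60 libraries were fitted together in edgeR 4.0.16 (R 4.3.3) with 20 group means, TMM scaling, the filterByExpr filter (6070 of 7126 features kept) and the quasi-likelihood F test, with Benjamini-Hochberg adjustment per comparison. The standard error is the absolute log2 fold change divided by the square root of F. CPM are on the TMM scale, except those of MSN2 and MSN4 and of a count of 3, which are per library total. The edgeR fit was tested on simulated data, for a pair of comparisons and with no effect of the library set. Features on 0.459% of counts had no match in R64. Members and gene lists were chosen with earlier results of these data known. RPN4 is named in every comparison, as are subunits with high or low changes and called genes of the lists, and further subunits were named after their values were seen. Alternatives were DESeq2 1.42.0, RLE or no scaling factors, no filter, a 2-fold rule, a replicate block, the library set as a term, leaving out each library, leaving out 5 libraries far from their groups and another TMM reference library. The last pair was chosen after seeing the data. Fits without libraries kept the genes and scaling factors of all 60, and the fit with no filter kept the scaling factors, so that 1 choice changed at a time. Promoter windows were read from R64. Depth was 3848210 to 10142858 counts, and a count of 3 corresponds to 0.296 to 0.78 CPM.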

Additional observations from a re-analysis of the deposited data

Results flagged for a closer look

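Each of the following was singled out because the response to heat differed between a pair of states by edgeR's interaction test (adjusted p under 0.05), and values are differences of log2 responses or counts of called genes. For Hsf1-depleted cells minus wild type, RPN4 differed by -1.34 for 37 °C 10 min, -2.14 for 42 °C 10 min and -1.25 for 42 °C 30 min. Among subunit genes, Hsf1-depleted cells minus wild type gave 13 subunit genes higher for 37 °C 30 min, RPN7 at 1.51 for 37 °C 30 min and RPN11 at 1.87 for 37 °C 30 min. Among subunit genes, MSN-deleted cells minus wild type gave 5 subunit genes higher for 37 °C 10 min, RPN7 at 1.66 for 37 °C 10 min, RPN13 at 1.98 for 37 °C 10 min, 1 subunit gene higher for 42 °C 10 min and 3 subunit genes higher for 42 °C 30 min. For double loss minus wild type, RPN4 differed by -2.51 for 37 °C 10 min, -1.41 for 37 °C 30 min, -3.38 for 42 °C 10 min and -3.32 for 42 °C 30 min. Among subunit genes, double loss minus wild type gave 16 subunit genes higher for 37 °C 30 min, PRE5 at 2.06 for 37 °C 30 min, RPN11 at 2.42 for 37 °C 30 min, PRE1 at 2.5 for 37 °C 30 min, 5 subunit genes lower for 42 °C 30 min, RPN10 at -1.07 for 42 °C 30 min and PRE10 at -0.71 for 42 °C 30 min. For double loss minus Hsf1-depleted cells, RPN4 differed by -1.17 for 37 °C 10 min, -2.17 for 37 °C 30 min, -1.24 for 42 °C 10 min and -2.07 for 42 °C 30 min. For double loss minus MSN-deleted cells, RPN4 differed by -1.9 for 37 °C 10 min, -1.19 for 37 °C 30 min, -3.23 for 42 °C 10 min and -2.95 for 42 °C 30 min. Among subunit genes, double loss minus MSN-deleted cells gave 1 subunit gene lower for 37 °C 10 min, 4 subunit genes higher for 37 °C 30 min, RPN6 at 1.11 for 37 °C 30 min and 1 subunit gene lower for 42 °C 30 min. The comparisons of double loss with each single loss were added after the data had been seen. No group had enough libraries for a test of single outlying values.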

How the results depend on the processing

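Alternatives are named in parentheses as RLE (DESeq2's size factors in edgeR), totals (library totals alone), no filter (on low counts), DESeq2, set term (library set in the model), 2-fold rule (adjusted p and 2-fold), without the 5 (the 5 libraries farthest from their groups, chosen after seeing the data), next reference (another reference library for TMM, chosen after seeing the data) and single libraries (the range over all fits that leave out 1, with the number of them that changed the call). RPN4 values are log2 changes whose call was lost unless said to be gained, and a value under the 2-fold rule is the same value, below 2-fold. The cause was not tested for any of these. RPN4 in Hsf1-depleted cells at 37 °C 10 min went from 0.72 to 0.76 (totals), 0.72 (2-fold rule) and 0.59 to 0.93 (single libraries, call lost in 4 of 6 fits). RPN4 in MSN-deleted cells at 37 °C 30 min went from 0.97 to 0.97 (2-fold rule). RPN4 in Hsf1-depleted cells minus wild type at 37 °C 10 min went from -1.34 to -0.72 (totals), -1.12 (without the 5) and -1.57 to -1.1 (single libraries, call lost in 6 of 12 fits). RPN4 in Hsf1-depleted cells minus wild type at 42 °C 10 min went from -2.14 to -1.8 (totals). RPN4 in Hsf1-depleted cells minus wild type at 42 °C 30 min went from -1.25 to -0.46 (totals), -1.25 (no filter) and -1.48 to -1.06 (single libraries, call lost in 8 of 12 fits). RPN4 in double loss minus wild type at 37 °C 30 min went from -1.41 to -0.87 (totals). RPN4 in wild type between 10 and 30 min at 37 °C went from -0.87 to -0.45 (totals), -0.63 (without the 5), -0.87 (2-fold rule) and -1.03 to -0.63 (single libraries, call lost in 1 of 6 fits). RPN4 in Hsf1-depleted cells between 10 and 30 min at 42 °C went from 0.74 to 0.74 (2-fold rule) and 0.55 to 0.93 (single libraries, call lost in 3 of 6 fits). RPN4 in MSN-deleted cells between 10 and 30 min at 42 °C went from -0.36 to -0.63 (without the 5, call gained). RPN4 in double loss minus Hsf1-depleted cells at 37 °C 10 min went from -1.17 to -1.1 (RLE), -1.01 (totals), -0.93 (without the 5) and -1.38 to -0.95 (single libraries, call lost in 6 of 12 fits). RPN4 in double loss minus Hsf1-depleted cells at 42 °C 10 min went from -1.24 to -0.86 (totals) and -1.44 to -1.02 (single libraries, call lost in 5 of 12 fits). RPN4 in double loss minus MSN-deleted cells at 37 °C 30 min went from -1.19 to -1.02 (totals) and -1.35 to -0.97 (single libraries, call lost in 2 of 12 fits).

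Counts of subunit genes called, with those higher and lower after it as (higher/lower), moved by over 1.5 times as follows. Directions in fits without single libraries stand beside each count in the text above. No share of all genes is given for these alternatives. Wild type at 37 °C 10 min, 8 (3/5) became 2 (0/2, 2-fold rule) and 3 to 11 (single libraries). Wild type at 37 °C 30 min, 17 (0/17) became 6 (0/6, totals), 4 (0/4, 2-fold rule) and 5 to 16 (single libraries). Wild type at 42 °C 10 min, 5 (1/4) became 8 (0/8, totals), 1 (0/1, 2-fold rule) and 3 to 5 (single libraries). Wild type at 42 °C 30 min, 13 (3/10) became 20 (0/20, totals) and 1 (0/1, 2-fold rule). Hsf1-depleted cells at 37 °C 10 min, 0 became 2 (2/0, set term) and 0 to 1 (single libraries). Hsf1-depleted cells at 37 °C 30 min, 8 (8/0) became 4 (4/0, totals) and 2 (2/0, 2-fold rule). Hsf1-depleted cells at 42 °C 10 min, 5 (0/5) became 8 (0/8, RLE, set term), 9 (0/9, DESeq2), 12 (0/12, without the 5), 1 (0/1, 2-fold rule) and 3 to 8 (single libraries). Hsf1-depleted cells at 42 °C 30 min, 15 (1/14) became 7 (1/6, totals) and 8 (0/8, 2-fold rule). MSN-deleted cells at 37 °C 10 min, 12 (12/0) became 1 (1/0, 2-fold rule). MSN-deleted cells at 37 °C 30 min, 0 became 1 (1/0, set term). MSN-deleted cells at 42 °C 10 min, 9 (8/1) became 3 (2/1, totals), 5 (4/1, next reference), 0 (2-fold rule) and 3 to 9 (single libraries). MSN-deleted cells at 42 °C 30 min, 7 (6/1) became 3 (2/1, totals) and 2 (1/1, 2-fold rule). Double loss at 37 °C 30 min, 10 (10/0) became 3 (3/0, 2-fold rule) and 6 to 16 (single libraries). Double loss at 42 °C 10 min, 3 (1/2) became 5 (1/4, RLE), 6 (2/4, DESeq2, set term), 0 (2-fold rule) and 1 to 3 (single libraries). Double loss at 42 °C 30 min, 9 (1/8) became 14 (6/8, without the 5) and 4 (0/4, 2-fold rule). Hsf1-depleted cells against wild type at 25 °C, 1 (0/1) became 0 (RLE, totals, no filter, the block, without the 5, 2-fold rule), 2 (0/2, DESeq2) and 0 to 2 (single libraries). Double loss against wild type at 25 °C, 0 became 1 (0/1, without the 5). Hsf1-depleted cells minus wild type at 37 °C 10 min, 0 became 1 (1/0, totals), 2 (1/1, DESeq2), 4 (3/1, set term) and 0 to 5 (single libraries). Hsf1-depleted cells minus wild type at 37 °C 30 min, 13 (13/0) became 6 (6/0, totals, 2-fold rule), 20 (20/0, set term) and 8 to 17 (single libraries). Hsf1-depleted cells minus wild type at 42 °C 30 min, 0 became 1 (0/1, RLE), 3 (0/3, DESeq2), 2 (0/2, set term) and 0 to 2 (single libraries). MSN-deleted cells minus wild type at 37 °C 10 min, 5 (5/0) became 11 (11/0, totals), 10 (10/0, DESeq2, set term), 2 (2/0, without the 5) and 1 to 10 (single libraries). MSN-deleted cells minus wild type at 37 °C 30 min, 0 became 1 (1/0, DESeq2). MSN-deleted cells minus wild type at 42 °C 10 min, 1 (1/0) became 2 (2/0, totals), 3 (3/0, DESeq2, set term), 9 (9/0, without the 5), 0 (2-fold rule) and 0 to 2 (single libraries). MSN-deleted cells minus wild type at 42 °C 30 min, 3 (3/0) became 6 (6/0, DESeq2), 9 (9/0, set term, without the 5), 0 (2-fold rule) and 1 to 7 (single libraries). Double loss minus wild type at 37 °C 10 min, 0 became 1 (0/1, RLE, next reference, DESeq2), 4 (4/0, totals), 2 (1/1, set term), 3 (1/2, without the 5) and 0 to 3 (single libraries). Double loss minus wild type at 42 °C 10 min, 0 became 3 (3/0, totals). Double loss minus wild type at 42 °C 30 min, 5 (0/5) became 12 (12/0, totals), 9 (4/5, set term), 14 (9/5, without the 5), 1 (0/1, 2-fold rule) and 0 to 10 (single libraries). Wild type between 10 and 30 min at 37 °C, 10 (0/10) became 0 (totals, 2-fold rule) and 6 to 11 (single libraries). Wild type between 10 and 30 min at 42 °C, 4 (3/1) became 1 (1/0, totals), 7 (3/4, set term) and 0 (2-fold rule). Hsf1-depleted cells between 10 and 30 min at 37 °C, 5 (5/0) became 2 (2/0, totals), 0 (2-fold rule) and 3 to 6 (single libraries). Hsf1-depleted cells between 10 and 30 min at 42 °C, 8 (1/7) became 5 (1/4, RLE, next reference, DESeq2), 2 (1/1, totals), 2 (0/2, 2-fold rule) and 5 to 8 (single libraries). MSN-deleted cells between 10 and 30 min at 37 °C, 17 (0/17) became 4 (0/4, totals), 1 (0/1, 2-fold rule) and 10 to 15 (single libraries). MSN-deleted cells between 10 and 30 min at 42 °C, 4 (2/2) became 2 (1/1, totals), 7 (5/2, DESeq2), 7 (4/3, set term), 7 (2/5, without the 5), 1 (1/0, 2-fold rule) and 2 to 3 (single libraries). Double loss between 10 and 30 min at 37 °C, 11 (11/0) became 5 (5/0, 2-fold rule) and 5 to 15 (single libraries). Double loss between 10 and 30 min at 42 °C, 7 (1/6) became 3 (1/2, totals) and 1 (0/1, 2-fold rule). Wild type between 37 and 42 °C at 10 min, 5 (0/5) became 8 (0/8, RLE), 2 (0/2, totals), 9 (0/9, next reference, DESeq2), 9 (1/8, set term), 0 (2-fold rule) and 2 to 4 (single libraries). Wild type between 37 and 42 °C at 30 min, 6 (5/1) became 10 (9/1, RLE, next reference, DESeq2) and 2 (2/0, 2-fold rule). Double loss minus Hsf1-depleted cells at 37 °C 30 min, 0 became 1 (1/0, totals, set term), 2 (1/1, without the 5) and 0 to 5 (single libraries). Double loss minus Hsf1-depleted cells at 42 °C 10 min, 0 became 1 (1/0, without the 5). Double loss minus Hsf1-depleted cells at 42 °C 30 min, 0 became 8 (8/0, without the 5). Double loss minus MSN-deleted cells at 37 °C 10 min, 1 (0/1) became 3 (0/3, RLE, set term), 0 (totals, 2-fold rule), 4 (0/4, next reference), 5 (0/5, DESeq2) and 0 to 2 (single libraries). Double loss minus MSN-deleted cells at 37 °C 30 min, 4 (4/0) became 2 (2/0, totals), 7 (7/0, set term), 1 (1/0, 2-fold rule) and 3 to 8 (single libraries). Double loss minus MSN-deleted cells at 42 °C 10 min, 0 became 1 (0/1, DESeq2, set term) and 0 to 1 (single libraries). Double loss minus MSN-deleted cells at 42 °C 30 min, 1 (0/1) became 3 (0/3, RLE, next reference), 0 (totals, 2-fold rule), 4 (0/4, DESeq2, set term), 2 (0/2, without the 5) and 1 to 3 (single libraries).

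With library totals alone the direction turned for SCL1 in wild type at 37 °C 10 min (-0.0469), PUP1 in wild type at 37 °C 10 min (-0.0067), PRE3 in wild type at 42 °C 10 min (-0.13), PRE4 in wild type at 42 °C 30 min (-0.0122), SCL1 in double loss minus wild type at 42 °C 30 min (0.37), PRE10 in double loss minus wild type at 42 °C 30 min (0.34), PUP1 in double loss minus wild type at 42 °C 30 min (0.41), PRE4 in double loss minus wild type at 42 °C 30 min (0.42) and RPN10 in double loss minus wild type at 42 °C 30 min (0.0313).

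The replicate block (numbers shared across groups, which no label ties to a culture) took the subunit count of Hsf1-depleted cells against wild type at 25 °C from 1 to 0, changed no RPN4 call, and ended the subunit calls of RPN3 in MSN-deleted cells at 42 °C 10 min (0.45), RPN9 in MSN-deleted cells at 42 °C 10 min (0.82), RPT6 in Hsf1-depleted cells against wild type at 25 °C (-0.78) and RPN1 in MSN-deleted cells minus wild type at 37 °C 10 min (0.97). The check of pairing correlated deviations of same-numbered libraries. All 3 correlations were over 0.1 in 2 of 30 comparisons of a pair of groups, so the numbers were not taken to pair the libraries. Same-numbered libraries often lay in different library sets, so this check cannot tell whether libraries of the same set pair. No such check was made by set. The library set as a term could not be estimated for MSN-deleted cells or double loss against wild type at 25 °C.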
